A study of Mus musculus with 9 samples.

Results

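Lbp, Lcn2, Saa1, Saa3, Serpina3n, C3, Hp, Lrg1, Defb1 and Ltf are 10 acute-phase and antimicrobial defence genes, out of 49585 genes measured, and were followed here in organoids grown from mouse prostate basal cells. The genes were selected on their FPKM levels and on their differences between the media in these same libraries, so the values below describe them and carry no test. The cells came from C57BL/6J prostates, were sorted as basal cells by flow cytometry and were kept for 5 days as organoids, which are small 3-dimensional epithelial cultures. Each of 3 media had 3 libraries. RD7 medium held 500 ng/ml R-spondin1 and 100 nM dihydrotestosterone (DHT), R medium held 500 ng/ml R-spondin1, and BM was the basal medium with neither. All 3 media shared advanced DMEM/F12 with B27, HEPES, GlutaMAX, penicillin-streptomycin, 1.25 mM N-acetylcysteine, 50 ng/ml EGF, 200 nM A83-01, 100 ng/ml Noggin and 10 µM Y-27632, so TGF-beta and BMP signalling were inhibited in every group, BM included. R-spondin1 strengthens Wnt signalling and DHT is the potent androgen formed from testosterone. RD7 against R shows DHT on top of R-spondin1, R against BM shows R-spondin1 alone, and no group used here had DHT without R-spondin1. Nothing in the labels tells if replicate libraries stem from different mice, sorts or cultures, so any spread between them may be technical.

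Acute-phase proteins are secreted proteins whose amounts in blood change during infection or injury. The liver makes most of them, under interleukin-6 acting through STAT3, interleukin-1 acting through NF-kappaB, and C/EBP transcription factors, and glucocorticoids strengthen several of these responses. Epithelia also make a number of them locally, together with peptides and iron-binding proteins that kill microbes or starve them of iron, and prostatic fluid contains such defence proteins.

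The promoters are shown first because members that differed in opposite directions carried the same letters. RefSeq promoters of GRCm38.p6, each 250 bases before to 50 after the start site, were at hand for 7 of the 10 genes. The C/EBP letters TTGCNNAA, searched on both strands, were present in 5 of these 7, against 10.8% of 32851 promoters of the same length. The 5 windows before the start sites follow, 5′ to 3′ on the gene's strand, with the match in capitals. They lie at chr2:32387740-32387989 (Lcn2, minus strand), chr7:46742981-46743230 (Saa1, minus), chr7:46715677-46715926 (Saa3, minus), chr17:57228137-57228386 (C3, minus) and chr9:111019042-111019291 (Ltf, plus).
Lcn2: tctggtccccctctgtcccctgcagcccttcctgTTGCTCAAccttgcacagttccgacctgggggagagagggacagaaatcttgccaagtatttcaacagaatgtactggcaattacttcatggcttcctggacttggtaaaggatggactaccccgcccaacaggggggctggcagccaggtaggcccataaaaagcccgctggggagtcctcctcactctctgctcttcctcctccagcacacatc
Saa1: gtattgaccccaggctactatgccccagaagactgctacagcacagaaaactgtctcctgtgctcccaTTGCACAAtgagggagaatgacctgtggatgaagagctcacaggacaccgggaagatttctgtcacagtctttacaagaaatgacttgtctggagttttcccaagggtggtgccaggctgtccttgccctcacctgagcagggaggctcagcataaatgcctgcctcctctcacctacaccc
Saa3: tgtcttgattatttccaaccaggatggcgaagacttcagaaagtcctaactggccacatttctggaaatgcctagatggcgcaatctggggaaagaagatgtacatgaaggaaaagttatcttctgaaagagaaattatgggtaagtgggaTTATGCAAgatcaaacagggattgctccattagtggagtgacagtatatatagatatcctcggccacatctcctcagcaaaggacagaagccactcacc
C3: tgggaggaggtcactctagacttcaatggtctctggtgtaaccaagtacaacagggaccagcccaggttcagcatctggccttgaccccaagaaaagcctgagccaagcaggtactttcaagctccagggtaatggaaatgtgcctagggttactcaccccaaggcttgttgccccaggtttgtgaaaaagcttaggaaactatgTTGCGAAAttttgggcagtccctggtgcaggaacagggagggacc
Ltf: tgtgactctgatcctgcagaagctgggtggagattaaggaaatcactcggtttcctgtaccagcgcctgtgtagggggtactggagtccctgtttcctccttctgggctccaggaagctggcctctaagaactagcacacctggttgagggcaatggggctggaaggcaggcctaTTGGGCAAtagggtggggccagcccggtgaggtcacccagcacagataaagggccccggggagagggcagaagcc
Counted from the start site, the matches spanned positions −216 to −209 in Lcn2, −182 to −175 in Saa1, −99 to −92 in Saa3, −45 to −38 in C3 and −75 to −68 in Ltf, and those of Saa3 and Ltf read on the opposite strand. Lcn2, Saa1 and Saa3 had higher levels in RD7 than in R, and C3 and Ltf had lower ones. The NF-kappaB letters (GGG, 2 free bases, TT, 1 free base and CC) were found in Serpina3n alone, against 4.79% of promoters, as were the androgen or glucocorticoid half-site letters AGAACA, against 19%. The full androgen or glucocorticoid site (AGAACA, 3 free bases and TGTTCT; 0.00913% of promoters), the STAT letters TTCNNNGAA (8.3%) and the Wnt-effector letters CTTTGAT (3.73%) and CTTTGTT (5.85%) were in none of the 7. The Lrg1 window held none of the motifs searched. A match is only a run of letters, and gene models differ: the GENCODE M21 model of Lcn2 ends at position 32388252, beyond the Lcn2 window.

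The libraries held 16894534 to 19102842 counted reads in RD7, 15961444 to 23256007 in R and 6505859 to 24141017 in BM, where BM 1 was the shallowest. Fkbp5, a steroid-receptor target, averaged 109 ± 16.3 FPKM in RD7 and 4.29 ± 0.737 FPKM in R (SD, n = 3 each). Axin2, a Wnt target, averaged 4.28 ± 1.17 FPKM in R and 0.351 ± 0.0381 FPKM in BM. Both treatments were thus visible in the libraries that bear their names. Basal markers (Krt5, Krt14, Trp63 and 5 others) summed to 8750.4 to 9854 FPKM in RD7, 10505 to 11153 in R and 7992 to 8827 in BM, and 5 epithelial markers to 1271 FPKM or more in every library. Of 11 neutrophil markers, Ngp, Camp, Elane, Csf3r and Retnlg had no read in any library, and the sums were 2.23 to 2.27 FPKM in RD7, 2.62 to 3.77 in R and 1.40 to 6.15 in BM. Of 13 macrophage and other leukocyte markers, C1qa, C1qb and Tyrobp were among those with no read, and the sums were 5.54 to 6.87, 5.68 to 7.26 and 6.61 to 7.95 FPKM in RD7, R and BM. Luminal markers summed to 1753 to 2160.0 FPKM in RD7, 1691 to 1989 in R and 2114 to 2663 in BM, and proximal luminal progenitor markers to 3752 to 4677, 3063 to 3554 and 3282 to 4322 FPKM. Gene by gene the epithelial lineage markers differed more than these sums. In RD7 against R, 5 of 8 basal markers fell and none rose (median log2 fold change −0.78), 4 of 8 luminal markers rose and 2 fell (median 1.30), and 4 of 8 proximal luminal progenitor markers rose and 1 fell (median 0.81). In R against BM, 1 basal marker rose, 3 luminal markers fell, and 3 proximal luminal progenitor markers rose and 3 fell. Of all genes tested, 13.4% rose and 17.7% fell in RD7 against R, and 4.39% and 5.64% in R against BM. The lineage markers thus differed between the media in which the 10 genes differed, and their part in the levels of the 10 genes was not tested.

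The 10 genes did not move as a block. Relative to R, 8 stood higher in RD7 (Lrg1, Defb1, Lbp, Saa1, Serpina3n, Saa3, Lcn2 and Hp) and 2 stood lower (Ltf and C3), and for all 10 the RD7 and R libraries did not overlap. Of all 15867 genes tested, 51.8% had non-overlapping RD7 and R groups, and 31.1% were called by limma at an adjusted p under 0.05, 13.4% as higher in RD7 and 17.7% as lower. Relative to BM, R had 2 called higher (Saa3 and Defb1), 3 called lower (Lbp, C3 and Hp) and 5 not called, beside 4.39% higher and 5.64% lower (10.0% in all) among all genes; 30.3% of all genes had R and BM groups that did not overlap. RD7 against BM had 7 called higher, 2 lower and 1 (Hp) not, beside 21.6% higher and 25.4% lower (47.0% in all) among all genes, of which 52.4% had RD7 and BM groups that did not overlap. The genes were selected with all 3 contrasts, so the counts of members called are a description and nothing is read from them. The median log2 fold change of the 10 was 3.24 for RD7 against R, −0.12 for R against BM and 3.37 for RD7 against BM, beside −0.09, 0.02 and −0.07 over all genes. All 10 passed the filter on low values. Serpina3n passed it only through RD7, and Saa1 did not pass it when only the R and BM libraries were used. RD7 against R and R against BM share the R libraries, so their values are set side by side and not related to each other. In whole organoids, fewer cells making a transcript and less transcript per cell cannot be told apart.

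**Figure D1:**
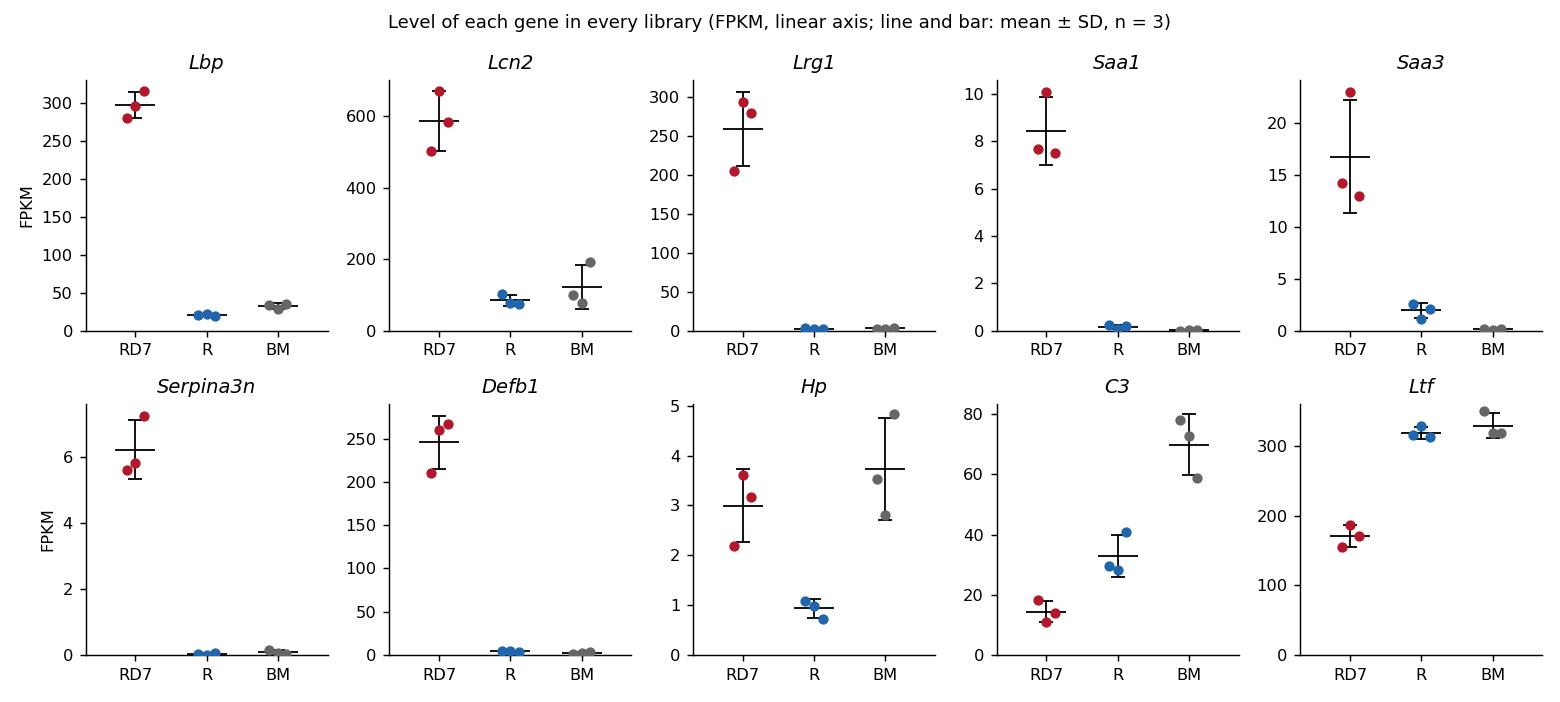
FPKM of each of the 10 genes in every library, on linear axes that start at 0 and differ between panels, with RD7, R and BM from left to right; points are libraries, lines are means and bars SD (n = 3). Lbp, Lcn2, Lrg1, Saa1, Saa3, Serpina3n and Defb1 are highest in RD7, Ltf and C3 are lowest there, and Hp is lowest in R.

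Gene positions are those of GENCODE M21 on GRCm38. Lbp (ENSMUSG00000016024, chr2:158306493-158332852, plus strand) encodes lipopolysaccharide-binding protein, which passes bacterial lipopolysaccharide to the receptor CD14. Lbp was at 281, 296 and 316 FPKM in the RD7 libraries, against 20.9, 21.9 and 19.6 FPKM in the R libraries. All RD7 values lay far above all R values, a 14.3-fold difference of means (log2 fold change 3.81 ± 0.13 SE on the FPKM + 0.5 scale used throughout). In BM, Lbp was at 34.1, 28.0 and 34.7 FPKM, above every R library, so that R was 1.55-fold lower than BM (log2 fold change −0.61 ± 0.13). Within a group, Lbp was among the steadiest of the 10, with a coefficient of variation of 5.95% in RD7 and 5.47% in R. Cd14, the gene of the receptor that takes over from the Lbp protein, went the other way from Lbp between RD7 and R, with 43.4 ± 8.85 FPKM in RD7, 85.7 ± 8.93 in R and 174 ± 28.8 in BM. Cd14 fell in RD7 against R (log2 fold change −0.99, limma adjusted p = 0.0022) and in R against BM (−1.01, limma adjusted p = 0.0045), with no overlap of libraries in either. Tlr4, the signalling receptor of the same complex, had 2.10 ± 0.312 FPKM in RD7 and 2.48 ± 0.353 in R, and fell in R against 5.15 ± 1.00 in BM (log2 fold change −0.91, limma adjusted p = 0.0085). Ly96, its partner, had 5.50 ± 1.77, 2.72 ± 0.678 and 2.57 ± 1.37 FPKM in RD7, R and BM and passed the test in neither step.

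Lcn2 (ENSMUSG00000026822, chr2:32384633-32388252, minus strand) encodes lipocalin 2, which binds the siderophores that bacteria use to take up iron. It had the highest level of the 10 in RD7, at 503, 672 and 585 FPKM in the RD7 libraries, against 103, 77.4 and 73.0 FPKM in the R libraries. The RD7 libraries lay 6.94-fold above R in their means (log2 fold change 2.79 ± 0.30). In BM the values were 99.2, 76.3 and 192 FPKM, so that R and BM overlapped, and BM 3 stood above the other BM libraries. Lcn2 had the widest standard error of the 10, and its R against BM difference was −0.44 ± 0.30 on the log2 scale, or −0.06 without BM 3. Among all genes tested, Lcn2 ranked 65th by mean FPKM in RD7, 739th in R and 387th in BM. Slc22a17, a receptor for the lipocalin 2 protein, had 8.63 ± 1.08 FPKM in RD7, 5.30 ± 1.17 in R and 3.55 ± 0.777 in BM. Its RD7 against R difference (log2 0.67, limma adjusted p = 0.027) was past the threshold in 13 of 19 alternative settings.

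Ltf (ENSMUSG00000032496, chr9:111019271-111042767, plus strand) encodes lactoferrin, an iron-binding protein of milk, tears and genital secretions, and it was the most abundant of the 10 in R and in BM. Ltf was at 155, 186 and 170.4 FPKM in RD7, against 315, 329 and 313 FPKM in R. RD7 was thus 1.87-fold lower than R (log2 fold change −0.90 ± 0.12), while the BM libraries, at 350.3, 318 and 319 FPKM, overlapped those of R. Hp (ENSMUSG00000031722, chr8:109575128-109579172, minus strand) encodes haptoglobin, which captures free haemoglobin and so its iron. It was the least abundant of the 10 in RD7, at 2.19, 3.62 and 3.17 FPKM, against 1.09, 0.991 and 0.719 FPKM in R and 3.54, 2.81 and 4.83 FPKM in BM. R was below both other groups, and RD7 and BM overlapped. The RD7 mean was 3.21-fold the R mean and the R mean 3.99-fold lower than the BM mean (log2 fold changes 1.27 ± 0.22 and −1.54 ± 0.22), from 260, 90 and 298 reads over the libraries of RD7, R and BM. The genes of transferrin and ceruloplasmin, which carry iron and copper in plasma, had their lowest level in R as well.

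Saa1 (ENSMUSG00000074115, chr7:46740497-46742980, minus strand) and Saa3 (ENSMUSG00000040026, chr7:46711998-46715700, minus strand) encode serum amyloid A proteins, lipid-binding proteins of the acute phase; in mice Saa3 is mostly made outside the liver. Saa1 was at 7.69, 10.1 and 7.50 FPKM in RD7, against 0.228, 0.0521 and 0.186 FPKM in R and 0, 0.0334 and 0.0206 FPKM in BM. These rest on 1131 reads in RD7, 22 in R and 3 in BM, so that Saa1 was near the limit of detection without DHT. The RD7 over R ratio of pooled counts was 58.1, with a 95% interval of 38.2 to 93.0 that covers counting error only. The R over BM ratio was 6.05 (1.82 to 31.6). On the log2 scale Saa1 differed by 0.33 ± 0.16 between R and BM, and it was not called there. Saa3 was at 14.2, 23.0 and 13.0 FPKM in RD7, against 2.60, 1.12 and 2.09 FPKM in R and 0.177, 0.0477 and 0.137 FPKM in BM. The 3 groups formed separate steps with no overlap, and Saa3 was the member with the largest difference between R and BM. The means differed 8.64-fold between RD7 and R (log2 fold change 2.83 ± 0.27) and 16.1-fold between R and BM (1.93 ± 0.27), with 294 reads in R and 13 in BM. The Saa1 transcript is 93.9% identical to that of Saa2 over its whole length of 609 bases, so reads of this pair may have been dropped or exchanged in counting. Saa2 itself had 22 reads in RD7, 4 in R and 0 in BM. Saa4, the next gene of the same cluster on chromosome 7, had 111 reads in RD7, none in R and 1 in BM.

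Lrg1 (ENSMUSG00000037095, chr17:56119678-56122001, minus strand) encodes leucine-rich alpha-2-glycoprotein, a plasma protein that modifies TGF-beta signalling in blood vessels. On the log2(FPKM + 0.5) scale it showed the largest RD7 against R difference of the 10. The ratio of means was larger for Serpina3n (192-fold, with 4 reads in R). Lrg1 was at 205, 294 and 279 FPKM in RD7, against 2.74, 2.42 and 2.08 FPKM in R. In BM the values were 2.62, 2.33 and 3.06 FPKM. Lrg1 moved to rank 181 of all genes tested in RD7, against rank 10689 in R and 10622 in BM. The RD7 mean was 107-fold the R mean (log2 fold change 6.47 ± 0.17), and R and BM overlapped (−0.12 ± 0.17). Serpina3n (ENSMUSG00000021091, chr12:104406729-104414329, plus strand) encodes a secreted serine protease inhibitor related to human alpha-1-antichymotrypsin. It was at 5.63, 5.83 and 7.26 FPKM in RD7, against 0.0304, 0 and 0.0671 FPKM in R and 0.149, 0.0602 and 0.0247 FPKM in BM. Only 4 reads in R and 6 in BM stood against 691 in RD7, a pooled RD7 over R ratio of 195 (95% counting interval 75.9 to 718). By alignment score the closest transcript to Serpina3n was that of Serpina3i, 80.5% identical over 95.6% of the Serpina3n length. Those of Serpina3c (79.3% identical) and Serpina3f (78.5% over 95.7%) came next. The Serpina3m transcript was 81.2% identical, over 76.5% of the length. Neighbours of the same cluster on chromosome 12 differed in opposite directions in RD7 against R. Serpina3m had 1.20 ± 0.453 FPKM in RD7 from 110 reads and no read in R or BM, whereas Serpina3g fell to 0.939 ± 0.273 FPKM in RD7, against 4.83 ± 0.326 in R (log2 fold change −1.91, limma adjusted p = 1.7e-05).

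Defb1 (ENSMUSG00000044748, chr8:21776599-21795185, plus strand) encodes beta-defensin 1, a small cationic peptide that damages microbial membranes. Defb1 was at 211, 259.8 and 267 FPKM in RD7, against 4.96, 4.68 and 3.76 FPKM in R and 1.59, 1.85 and 3.10 FPKM in BM. The RD7 mean was 55.0-fold the R mean (log2 fold change 5.63 ± 0.21). The R libraries also lay above every BM library, 2.05-fold in their means (0.92 ± 0.21). C3 (ENSMUSG00000024164, chr17:57203970-57228136, minus strand) encodes complement component 3, on which the complement cascades converge. It was at 18.1, 11.0 and 14.0 FPKM in RD7, against 29.4, 28.3 and 40.9 FPKM in R and 78.1, 72.8 and 58.7 FPKM in BM. C3 was the one member whose level went down at both steps with no overlap, by 2.28-fold in RD7 against R (log2 fold change −1.17 ± 0.21) and by 2.13-fold in R against BM (−1.09 ± 0.21).

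**Figure D2:**
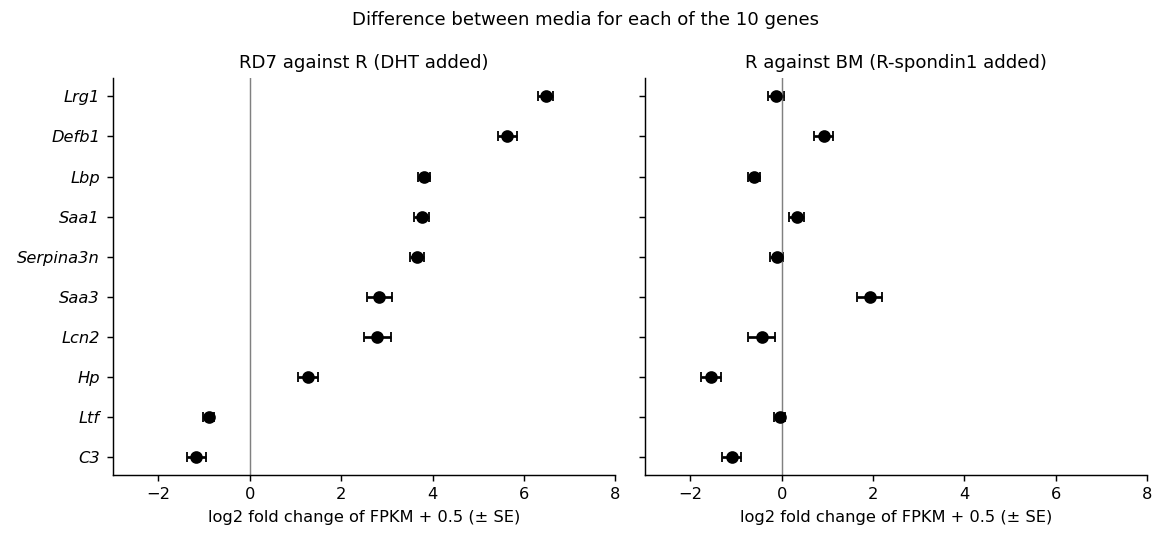
Log2 fold change of FPKM + 0.5 with its standard error for each of the 10 genes, RD7 against R on the left and R against BM on the right. On the left the values run from −1.17 (C3) to 6.47 (Lrg1), and on the right from −1.54 (Hp) to 1.93 (Saa3).

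The order of levels differed between the media. In RD7 the order by mean FPKM was Lcn2 (587), Lbp (298), Lrg1 (259), Defb1 (246), Ltf (171), Saa3 (16.7), C3 (14.4), Saa1 (8.42), Serpina3n (6.24) and Hp (2.99). The library range of Lrg1 overlapped those of its neighbours Lbp and Defb1, and the range of Saa3 overlapped that of C3, so these neighbours were not separable by their spread. Those of Lbp and Defb1 did not overlap each other. In R and in BM the first 4 places went to Ltf, Lcn2, C3 and Lbp, with 319, 84.6, 32.9 and 20.8 FPKM in R and 329, 122, 69.9 and 32.3 FPKM in BM, and the other 6 genes were below 5 FPKM in their means. Together the 10 genes took 0.384%, 0.462% and 0.441% of the counted reads in the RD7 libraries, against 0.163%, 0.160% and 0.159% in R and 0.205%, 0.182% and 0.209% in BM. Ltf made up 13.3% to 14.0% of these reads in RD7, 66.8% to 70.9% in R and 52.7% to 60.4% in BM. In RD7 Lbp and Lcn2 took the larger part, with 31.0% to 35.4% and 34.4% to 38.2%.

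**Figure D3:**
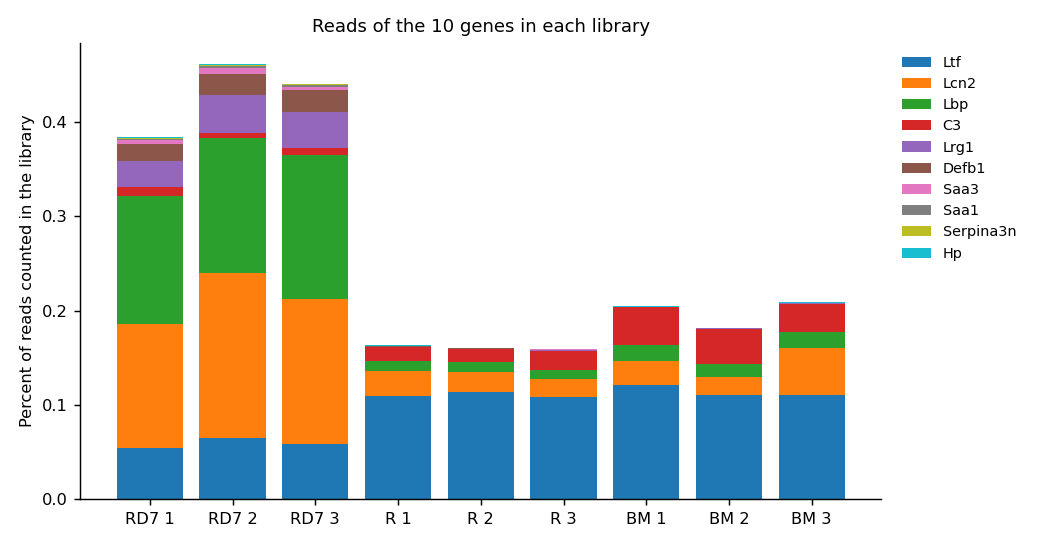
Reads of the 10 genes as a percentage of all reads counted in each library, stacked by gene, with the RD7 libraries left, R in the middle and BM right. The RD7 bars reach 0.384 to 0.462%, with Lcn2 and Lbp as the widest bands, while Ltf is the widest band in every R and BM bar (0.159 to 0.209% high).

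For each member, the genes with the most alike pattern were sought by Pearson correlation of log2(FPKM + 0.5) over the 9 libraries, as a description in which the 3 media set most of the variation. Lrg1 was followed most closely by Wfdc3 (0.9995), which had 5.47 FPKM in RD7, 0.0165 in R and 0.0256 in BM, and by the sulfotransferase gene Sult5a1 (0.9994). Defb1 was nearest to AV064505 (0.9987) and Mmp7 (0.9985), the gene of matrilysin, a protease that in the mouse intestine activates alpha-defensins. Mmp7 had 1383 FPKM in RD7, 60.0 in R and 34.4 in BM. Lbp was nearest to the glycosyltransferase gene A4galt (0.9974), with 41.2, 0.154 and 0.893 FPKM in RD7, R and BM, and Lcn2 to Cmtm8 (0.9954) and the glutathione transferase gene Gsta3 (0.9950). Serpina3n was nearest to Saa4 (0.9986) and Saa1 to the phospholipase gene Pla1a (0.9979). Serpina3n and Saa4 both passed the filter on low values only through RD7, so nothing is read from their correlation. Saa3 had a less close neighbour, Sytl1 (0.9911), as did the genes that were not highest in RD7. These were C3 with Gm29233 (0.9937) and Ltbp1 (0.9930), which binds latent TGF-beta, Ltf with Slco3a1 (0.9910), and Hp with the cell-cycle inhibitor gene Cdkn1c (0.9856), which had 30.8, 12.9 and 35.8 FPKM in RD7, R and BM.

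Other acute-phase genes were split in direction. Of 26 listed, 11 could be tested in RD7 against R, of which 5 rose, 2 fell and 4 did not pass, with a median log2 fold change of 0.27 beside −0.09 for all genes. Among all genes 13.4% rose and 17.7% fell there. Of the 5 listed genes that rose, Saa4 and Serpina3m passed the filter on low values only through RD7, which fixes their direction. The metallothioneins Mt1 and Mt2, which bind zinc and copper, rose to 121 ± 39.7 and 144 ± 47.2 FPKM in RD7, against 24.9 ± 8.14 and 30.2 ± 8.55 FPKM in R (log2 fold changes 2.26 and 2.22, limma adjusted p = 9.4e-04 and 0.0017). Ceruloplasmin (Cp), a copper-carrying oxidase, had the same shape as Hp, with 142 ± 8.72 FPKM in RD7, 64.8 ± 5.07 in R and 154 ± 21.7 in BM. It rose in RD7 against R (log2 1.13, limma adjusted p = 1.5e-04) and fell in R against BM (−1.23, limma adjusted p = 2.2e-04). The genes of C-reactive protein (Crp), serum amyloid P (Apcs), fibrinogen (Fgb and Fgg) and alpha-1-antitrypsin (Serpina1a and Serpina1b) had no read in any library. In R against BM, 1 gene of the 11 rose, 3 fell and 7 did not pass, with a median of −0.07 beside 0.02. Among all genes 4.39% rose and 5.64% fell. Orm1, the acid glycoprotein gene, rose to 4.90 ± 0.399 FPKM in R, against 1.89 ± 0.727 in BM (log2 1.22, limma adjusted p = 0.0080). Vnn1, which encodes a pantetheine-cleaving enzyme, fell at both steps, with 0.319 ± 0.160 FPKM in RD7, 1.87 ± 0.384 in R and 8.94 ± 0.492 in BM (limma adjusted p = 1.8e-04 and 7.1e-05).

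Hepatocyte markers were low but not even across the media. Of 9 markers, Cyp2e1, Cyp3a11 and Fgb had no read in any library, and Alb averaged 0.0447 FPKM in RD7, 0.0263 in R and 0 in BM. The 9 summed to 1.47 to 4.22 FPKM in RD7, 0.138 to 0.288 in R and 0.0562 to 0.665 in BM. Ahsg and Ttr passed the filter on low values, and only through RD7, Ahsg with 1.45 ± 0.681 FPKM in RD7 and 0.0194 ± 0.0337 in R, and Ttr with 0.747 ± 0.395 FPKM in RD7 and no read in R. Mesenchymal markers summed to 67.3 to 95.0 FPKM in RD7, 24.5 to 30.5 in R and 18.6 to 26.9 in BM, of which Dcn alone averaged 76.6, 21.9 and 4.79 FPKM, while Col1a1 averaged 0.0197, 0.240 and 0.128 FPKM. Of the 9 mesenchymal markers, 1 rose, 5 fell and 3 did not pass in RD7 against R (median log2 fold change −0.37). In R against BM, 1 rose, 3 fell and 5 did not pass (median −0.13). Among all genes, 13.4% rose and 17.7% fell in RD7 against R (median −0.09), and 4.39% and 5.64% in R against BM (median 0.02). The part of either list in the member levels was not tested.

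The other antimicrobial and mucosal defence genes also went both ways. Of 33 listed, 20 could be tested in RD7 against R, of which 9 rose, 6 fell and 5 did not pass (median 0.44). Beside these, 13.4% of all genes rose and 17.7% fell (median −0.09). Defb2, a second beta-defensin gene on chromosome 8, had 12.9 ± 3.33 FPKM in RD7, against 0.220 ± 0.227 in R, and passed the filter on low values only through RD7. Pglyrp1, a peptidoglycan-recognition protein that kills bacteria, rose to 124 ± 30.5 FPKM in RD7, against 16.0 ± 4.57 in R (2.92, limma adjusted p = 2.6e-04). Its relative Pglyrp4 went the other way, with 0.804 ± 0.283 FPKM in RD7, 11.2 ± 0.797 in R and 1.00 ± 0.224 in BM (−3.18 in RD7 against R, limma adjusted p = 1.1e-06). Pglyrp4 was highest in R, whereas Pigr, the receptor that carries antibodies across epithelia, was lowest there, with 100.1 ± 18.1 FPKM in RD7, 13.4 ± 1.72 in R and 56.6 ± 19.3 in BM (2.85, limma adjusted p = 1.6e-05). Of all genes, 4.39% rose and 5.64% fell in R against BM (median 0.02). There, 4 of the 20 rose, 3 fell and 13 did not pass (median 0.10). Among the risers were S100a7a, the mouse psoriasin gene, with 8.79 ± 1.63 FPKM in R and 0.629 ± 0.352 in BM (3.08, limma adjusted p = 8.3e-05), and Pglyrp4 (2.97, limma adjusted p = 6.3e-06). Pigr fell (−1.99, limma adjusted p = 5.3e-04).

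The listed genes of pathways known to drive acute-phase genes in liver differed in both directions in RD7 against R. More of them fell than rose, as among all genes, of which 13.4% rose and 17.7% fell there. With median-of-ratios scaling that balance of all genes was reversed, with 2532 higher and 2191 lower. In R against BM, 4.39% of all genes rose and 5.64% fell. Of 24 genes of the IL-6 family and STAT3, 22 were tested in RD7 against R, of which 2 rose, 6 fell and 14 did not pass, with a median of −0.12 beside −0.09. Il6ra, the ligand-binding part of the IL-6 receptor, rose to 3.77 ± 0.551 FPKM in RD7, against 0.915 ± 0.184 in R (log2 1.60, limma adjusted p = 6.9e-05), and Cebpd, a C/EBP factor, to 28.0 ± 2.83 FPKM, against 14.4 ± 2.09 (0.95, limma adjusted p = 0.0033). The IL-6 family cytokine gene Lif fell to 7.28 ± 1.99 FPKM in RD7, against 19.2 ± 2.86 in R (−1.36, limma adjusted p = 5.3e-04). Il6 itself averaged 0 FPKM in RD7, 0.0449 in R and 0 in BM. In R against BM, 1 gene (Socs3) rose and 21 did not pass, and that call held in 9 of 19 alternative settings. Of 36 tested genes of NF-kappaB, IL-1, IL-17 and Toll-like receptor signalling, 1 rose, 10 fell and 25 did not pass in RD7 against R (median −0.23), and 3 rose, 7 fell and 26 did not pass in R against BM (median −0.16). Cxcl5, a neutrophil-attracting chemokine gene, fell to 73.6 ± 8.17 FPKM in RD7, against 316 ± 15.7 in R (−2.10, limma adjusted p = 1.2e-05), and Tnfaip2 to 21.6 ± 4.91 FPKM, against 105 ± 5.51 (−2.29, limma adjusted p = 6.5e-06). Il1r2, the decoy receptor of IL-1, rose to 5.23 ± 0.879 FPKM in R, against 1.33 ± 0.405 in BM (1.66, limma adjusted p = 5.6e-04). The glucocorticoid receptor gene Nr3c1 had 3.23 FPKM in RD7, 4.70 in R and 5.23 in BM.

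Around C3, 14 of 27 complement genes were tested. In RD7 against R, 2 rose, 3 fell and 9 did not pass (median −0.11), and in R against BM 2 fell and 12 did not pass (median 0.04). Among all genes, 13.4% rose and 17.7% fell in RD7 against R (median −0.09), and 4.39% and 5.64% in R against BM (median 0.02). C1s1, a protease of the classical pathway, fell to 0.104 ± 0.0696 FPKM in RD7, against 1.35 ± 0.191 in R (−1.61, limma adjusted p = 2.9e-05), and Cd59a, which blocks the membrane attack complex, rose to 2.91 ± 0.906 FPKM, against 1.09 ± 0.178 (1.07, limma adjusted p = 0.0059). Clusterin (Clu), an inhibitor of that complex, fell at both steps as C3 did, with 417 ± 68.2 FPKM in RD7, 786 ± 48.0 in R and 1787 ± 259.6 in BM (−0.92 and −1.18, limma adjusted p = 0.0018 and 9.3e-04). Around Ltf, Lcn2 and Hp, 13 of 14 iron-handling genes were tested. In RD7 against R, 2 rose, 1 fell and 10 did not pass (median 0.03), and in R against BM 3 fell and 10 did not pass (median −0.34). Transferrin (Trf), the plasma iron carrier, had the low point in R that Hp showed, with 8.69 ± 0.459 FPKM in RD7, 1.60 ± 0.101 in R and 25.9 ± 5.52 in BM (2.13 and −3.63, limma adjusted p = 5.3e-06 and 5.1e-07). Trf encodes a relative of lactoferrin, and its transcript is 65% identical to that of Ltf over 72.8% of the Ltf length. Ferroportin (Slc40a1), the iron exporter, fell at both steps, with 2.44 ± 0.276 FPKM in RD7, 6.67 ± 0.237 in R and 17.6 ± 2.97 in BM (−1.29 and −1.32, limma adjusted p = 1.6e-04 and 3.4e-04).

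Of 20 genes for receptors and partners of the member proteins, 12 were tested. In RD7 against R, 1 rose, 3 fell and 8 did not pass (median −0.18), beside 13.4% rising and 17.7% falling among all genes. In R against BM, 2 rose, 2 fell and 8 did not pass (median 0.02), beside 4.39% and 5.64%. Mmp9, whose protein forms a complex with lipocalin 2, had 0.0427 ± 0.0481 FPKM in RD7, 2.85 ± 0.401 in R and 1.19 ± 0.141 in BM (−2.62 and 0.99, limma adjusted p = 6.5e-07 and 0.0017). Scarb1, a lipoprotein receptor that also binds serum amyloid A, had 16.9 ± 1.79, 14.7 ± 0.438 and 14.6 ± 0.881 FPKM in RD7, R and BM and passed in neither comparison. Fpr2, a receptor for serum amyloid A, Ccr6, a receptor for beta-defensins, and Ctsg, the protease bound by alpha-1-antichymotrypsin in humans, had no read in any library.

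**Figure D4:**
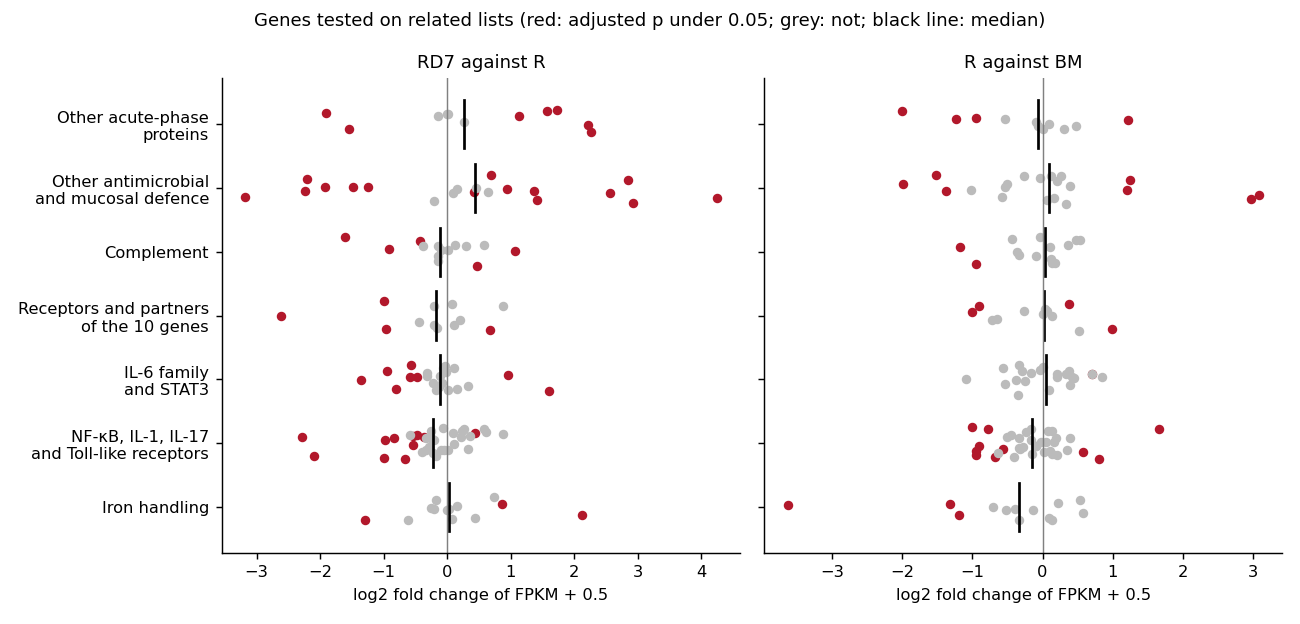
Log2 fold change of FPKM + 0.5 for every tested gene of 7 related lists, RD7 against R on the left and R against BM on the right; red points had a limma adjusted p under 0.05 over all genes, grey points did not, and black lines are list medians. In RD7 against R the antimicrobial list spreads from −3.18 (Pglyrp4) to 4.24 (Defb2), and the NF-kappaB list has 10 of its 11 red points below 0.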

How the data were processed

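RNA of 9 organoid libraries was made into polyA-selected SMART-Seq and NEBNext Ultra II libraries, per the labels' protocols. The deposited files give 1 FPKM value per gene and library, made by the authors; CASAVA 1.9, STAR 2.6.1a, featureCounts and edgeR 3.24.1 are named in the submitters' processing notes, and the annotation release is not given in the sources used here. Ensembl IDs were matched to GENCODE M21 symbols (99.5% of 49585). FPKM times exon length gave whole reads (within 0.01 read), with M21 lengths for 22971 of the 26813 genes above 0 and fitted lengths for 3840, Lrg1 among them; 99.986% or more of each library's reads were recovered, which gave depths, the CPM filter and counting intervals. A floor of 3 reads corresponds to 0.124 to 0.461 CPM. Intervals and floors cover counting error only, as reads without molecular identifiers are not independent molecules.

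The 15867 genes that reached 0.5 CPM in 3 or more libraries were fitted with limma 3.58.1 (R 4.3.3) on log2(FPKM + 0.5), with 1 mean per medium, trended and robust variances and 6 residual degrees of freedom from the 9 libraries. Benjamini-Hochberg adjustment ran over all 15867 genes. The pseudocount understates fold changes of low genes. The members and gene lists were chosen with earlier results of these data known. No p-value is therefore printed for a member, and the numbers of members past the threshold stand only beside the share of all genes. The adjusted p-values printed for genes of the other lists carry the same limit and are a description. In other lists, up to 4 called genes with the highest absolute log2 fold change were named per comparison. Any gene of the receptor and treatment-check lists and the 3 genes nearest to each member could also be named. Saa2, Il6, Dcn and genes given at 0 reads were named after their values were seen. Transcripts were compared with blastn 2.17.0; no member shares exon bases with another M21 gene. Protein sequences were not used here. Alternatives were other pseudocounts, filters and scalings, limma-voom on reads, a replicate block, removal of a length trend, only the groups compared, and leaving out each library. Python 3.11.15 with pandas 2.3.3 made the tables.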

Additional observations from a re-analysis of the deposited data

How the results depend on the processing

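The numbers of members past the threshold describe genes selected with these contrasts and say nothing of stability. For RD7 against R 9 to 10 were past it with a library left out, since Serpina3n did not pass the filter on low values without any one RD7 library, and 10 otherwise. For RD7 against BM 8 to 9 of the 10 were called with a library left out and 9 to 10 otherwise, since Hp was called lower (−0.62) once a length trend was removed. For R against BM 3 to 5 members were called with a library left out, the lowest number without R 1, and 4 to 5 otherwise. There Defb1 lost its call with limma-voom on reads and without BM 1, BM 2, R 1 or R 2 (log2 fold change 0.76 to 0.99), and Lbp without R 1 (−0.62) or R 3 (−0.57). Genes of the other lists called, each counted once and the treatment checks included, numbered 59 in RD7 against R (40 to 65 with a library left out). In R against BM they numbered 32 (21 to 43, the lowest without R 2). Of all genes, 31.1% and 10.0% were called in these comparisons. The lists were chosen with earlier results known, so nothing is read from these numbers. The cause of their shifts between settings was not tested.

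The share of all genes called in RD7 against R was 31.1%, and 14.9% with no filter, where more genes of few reads were tested. Leaving out R 2, R 3 or RD7 2 gave 20.1% each. In R against BM it was 10.0%, 4.65% with no filter, 5.66% without R 1, 5.72% without R 2, 6.61% without BM 1 and 21.3% without BM 3, where 2083 genes were called higher, against 696 with all libraries. In RD7 against BM it was 47.0%, 22.8% with no filter and 29.9% without RD7 2. Median-of-ratios scaling called 2532 genes higher and 2191 lower in RD7 against R, in place of 2121 and 2816.

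Correlations of deviations from the group means were −0.521 to 0.272 for libraries of the same number. For libraries of different numbers they were −0.578 to 0.578. With 3 libraries per group the deviations within a group depend on each other. These values therefore cannot tell whether the numbers pair the libraries. With the replicate number as a block, 461 genes in place of 696 were called higher in R against BM, and the numbers of members called stayed at 10, 5 and 9. BM 1, with 6505859 reads, limits what can be seen of the genes near 0 in BM. Across the genes tested, BM 3 correlated with R 1, R 2 and R 3 at 0.974, 0.968 and 0.971. Its correlations with BM 1 and BM 2 were 0.974 and 0.969. BM 1 and BM 2 correlated with the R libraries at 0.947 to 0.963.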
